A study of Mus musculus with 21 samples.

Results

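The genes that encode the nuclear subunits of oxidative phosphorylation complexes I, II, III and V, with cytochrome c, were followed across all groups of a mouse muscle stem cell array study. Members were taken by symbol: Ndufa, Ndufb, Ndufc, Ndufs or Ndufv followed by a number, Ndufab1, Sdha to Sdhd, symbols beginning Uqcr, Cyc1, Cycs and symbols beginning Atp5. Assembly factors named Ndufaf were left out. The rule used no measured difference, and it found 67 of the 19938 genes named on the array. There were 34 genes of complex I, 4 of complex II, 9 of complex III, 1 for cytochrome c, 17 of complex V and 2, Ndufa4 and Ndufa4l2, that carry a complex I name. All 67 passed the filter on low signal, which left 13956 genes to test. That filter was set on the mean log2 signal over all 12 pools, at 6.45, and the members' means lay between 6.68 and 12.79.

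Complex I (NADH dehydrogenase) and complex II (succinate dehydrogenase) pass electrons from NADH and succinate to ubiquinone, complex III passes them on to cytochrome c, and complex V, the ATP synthase, uses the proton gradient that electron transport builds to make ATP. Most of their subunits are encoded in the nucleus, a few in mitochondrial DNA, and the nuclear genes are known targets of the transcription factors NRF1, GABP (an ETS factor), YY1 and the oestrogen-related receptors with their coactivator PGC-1alpha. Quiescent muscle stem cells hold few mitochondria and little oxidative activity, and the kinase complex mTORC1, which raises mitochondrial gene expression in many cell types, is what the series set out to test in an alert form of quiescence called GAlert.

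The cells were muscle stem cells (satellite cells) of mice aged 3 to 5 months, purified by flow cytometry for YFP and put into RNA extraction with no culture between. Every group carried Pax7CreER/+ and Rosa26REYFP/+, so that tamoxifen, given at least 2 weeks earlier, had switched on the tracer and deleted any floxed gene only where Pax7 drove Cre. Quiescent satellite cells (QSC) came from noninjured mice, and contralateral satellite cells (CSC) from the hindlimb opposite to one injured with BaCl2 (barium chloride). WT cells, with no floxed allele, were taken as QSC (3 pools), as CSC at 2.5 days after injury (3 pools) and as CSC at 28 days (1 pool). The knockouts were TSC1flox/flox (an inhibitor of mTORC1; QSC), Rptrflox/flox (raptor, a subunit mTORC1 needs; QSC and CSC at 2.5 days) and cMetflox/flox (the receptor of hepatocyte growth factor; QSC and CSC at 2.5 days), each with 1 pool a group. The strain was mixed C57BL6, and C57BL6 mixed FVB for the cMet knockout, so strain and genotype cannot be told apart there. A pool held cells of 3 to 4 mice, and 9 of the 12 pools were measured on 2 arrays, which were averaged.

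Each array reported a log2 signal per probeset, and array medians ran from 7.03 to 7.21. All 12 satellite cell markers passed the filter, with Pax7 (the factor that defines these cells) between 10.26 and 12.10 over the 12 pools. Vcam1 lay between 11.84 and 12.65. Pax7 was at 10.26 to 10.63 in WT CSC at 2.5 days and 11.09 to 12.10 in WT QSC. Passing the filter does not check the cell label, since all 10 endothelial and all 10 pericyte and smooth muscle markers also passed. So did 7 of 10 macrophage and 9 of 12 mature fibre markers. Dpt, a fibro-adipogenic progenitor marker, was at 10.84 to 12.44. List means were 11.10 to 11.99 for satellite cell and 8.75 to 10.12 for fibro-adipogenic progenitor markers. The targeted genes did not pass the test in their own knockouts. Tsc1 was at 8.16 in the TSC1 knockout against 8.34 to 8.69 in WT QSC, Rptor at 9.19 and 8.85 in Rptor knockout QSC and CSC against 8.91 to 9.84 in the WT pools of both states, and Met at 10.25 and 10.13 in cMet knockout QSC and CSC against 9.93 to 10.11 in WT QSC and 10.63 to 10.94 in WT CSC. Whether the probes lie inside the deleted exons is not given in the sources used here, so these values do not check the labels. In 3 pools (WT CSC pool 1, Rptor knockout QSC and Rptor knockout CSC) the 2 arrays correlated at 0.973 to 0.982, against 0.994 to 0.998 in the other 6. Their second arrays differed from the first in a like way, with correlations of that difference between these pools of 0.621 to 0.687 over 13956 genes. Most results that rest on them are also given with their second or their first arrays left out.

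Promoters are shown for 6 members because they let the behaviour of single genes be set beside the letters upstream of them: the 3 genes of the ATP synthase c-ring (which encode the same mature protein), Sdhd and Uqcr11 (the genes with the smallest p in complexes II and III), and Cycs (cytochrome c). Each is the 250 bases before an annotated start, 5′ to 3′ on the gene's own strand, from RefSeq (GRCm38.p6), with a match to a searched motif in capitals.
Sdhd, chr9:50603850-50604099, minus strand, ETS motif at -46: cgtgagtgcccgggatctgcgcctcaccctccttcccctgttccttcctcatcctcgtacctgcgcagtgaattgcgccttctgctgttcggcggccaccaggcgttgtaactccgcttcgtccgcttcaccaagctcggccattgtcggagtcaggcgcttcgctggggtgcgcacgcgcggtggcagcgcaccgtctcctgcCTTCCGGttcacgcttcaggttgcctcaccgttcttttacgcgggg
Uqcr11, chr10:80406822-80407071, minus strand, ETS motif at -66: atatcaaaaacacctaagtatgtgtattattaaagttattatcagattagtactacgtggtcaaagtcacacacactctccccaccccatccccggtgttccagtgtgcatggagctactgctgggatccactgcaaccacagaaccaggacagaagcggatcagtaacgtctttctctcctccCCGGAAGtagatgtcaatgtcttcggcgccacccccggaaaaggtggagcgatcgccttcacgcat
Cycs, chr6:50566570-50566819, minus strand, NRF1 motif at -61: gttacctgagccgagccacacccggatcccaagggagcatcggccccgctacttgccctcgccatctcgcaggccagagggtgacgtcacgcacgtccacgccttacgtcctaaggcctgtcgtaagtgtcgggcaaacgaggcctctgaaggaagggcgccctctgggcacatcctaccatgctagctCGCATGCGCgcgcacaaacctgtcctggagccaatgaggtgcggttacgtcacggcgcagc
Atp5g1, chr11:96075632-96075881, minus strand, no match: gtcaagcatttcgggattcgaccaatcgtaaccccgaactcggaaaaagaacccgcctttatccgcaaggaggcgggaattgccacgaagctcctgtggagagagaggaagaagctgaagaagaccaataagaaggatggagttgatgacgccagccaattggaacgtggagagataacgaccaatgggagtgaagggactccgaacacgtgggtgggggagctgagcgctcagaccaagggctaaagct
Atp5g2, chr15:102671048-102671297, minus strand, NRF1 motif on both strands at -42 and -41: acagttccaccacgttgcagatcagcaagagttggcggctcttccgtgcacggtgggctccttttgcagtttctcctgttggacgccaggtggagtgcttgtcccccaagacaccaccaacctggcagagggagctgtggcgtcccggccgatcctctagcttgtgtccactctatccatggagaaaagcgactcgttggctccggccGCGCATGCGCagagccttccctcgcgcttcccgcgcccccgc
Atp5g3, chr2:73911327-73911576, minus strand, ERR motif at -52: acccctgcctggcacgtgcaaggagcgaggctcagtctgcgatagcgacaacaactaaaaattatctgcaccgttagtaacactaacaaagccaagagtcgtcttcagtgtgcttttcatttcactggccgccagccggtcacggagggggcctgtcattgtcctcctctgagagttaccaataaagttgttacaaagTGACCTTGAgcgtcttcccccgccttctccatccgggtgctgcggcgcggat

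Positions are those of the first capital base, counted back from the annotated start. The motifs searched, on both strands and over 250 bases before to 50 after the start, were GCGCATGCG (NRF1), CCGGAAG (ETS factors such as GABP), AAGATGGC (YY1) and TNAAGGTCA (oestrogen-related receptors, ERR). Of the 67 members, 56 matched a promoter in the table, and 5 had more than 1. At least 1 motif, in any promoter of the gene, stood in 29 of the 56 (51.8%), against 15.3% of 27025 genes with a promoter there. The NRF1 letters stood in 8 members (14.3%, against 1.95% of all genes), the ETS letters in 14 (25% against 9.93%), the YY1 letters in 10 (17.9% against 3.19%) and the ERR letters in 2 (3.57% against 1.43%). A palindromic NRF1 site can match on both strands, as in Atp5g2, and was counted once. These are matches of letters, with no binding measured here.

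The first comparison asks what an injury in the opposite limb did to these genes in WT cells. Oxidative phosphorylation genes were higher in CSC at 2.5 days than in QSC: 39 of 67 rose and none fell at an adjusted p under 0.05 (limma with Benjamini-Hochberg adjustment over all 13956 genes), against 10.6% of all genes called higher, 7.36% called lower and 18% called in either direction. The median difference over the 67 genes was 0.56 on the log2 scale (1.48-fold), against -0.05 over all genes tested, and 65 of 67 differences were positive. Differences ran from -0.14 for Ndufa4l2 to 1.61 for Ndufa4. In 49 genes the 3 CSC pools all lay above the 3 QSC pools, and in none did they all lie below; 18.7% and 19.1% of all genes did so. The 39 genes that rose were all among those 49. Of the members with a promoter in the table, 20 of 32 that rose and 9 of 24 that did not pass held at least 1 of the motifs searched, given as counts with no test. Pool medians against the WT QSC mean were 0.67, 0.47 and 0.54 in the CSC pools and 0.08, -0.10 and 0.04 in the QSC pools. Without WT CSC pool 1 the count was 23, and without WT CSC pool 3 it was 21, all of them among the 39; 2 pools then stood against 3. Over all genes the count of higher calls also dropped, from 1483 to 867 and 846. Leaving out the second arrays of the 3 pools named above gave 40, and leaving out their first arrays gave 36.

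**Figure D1:**
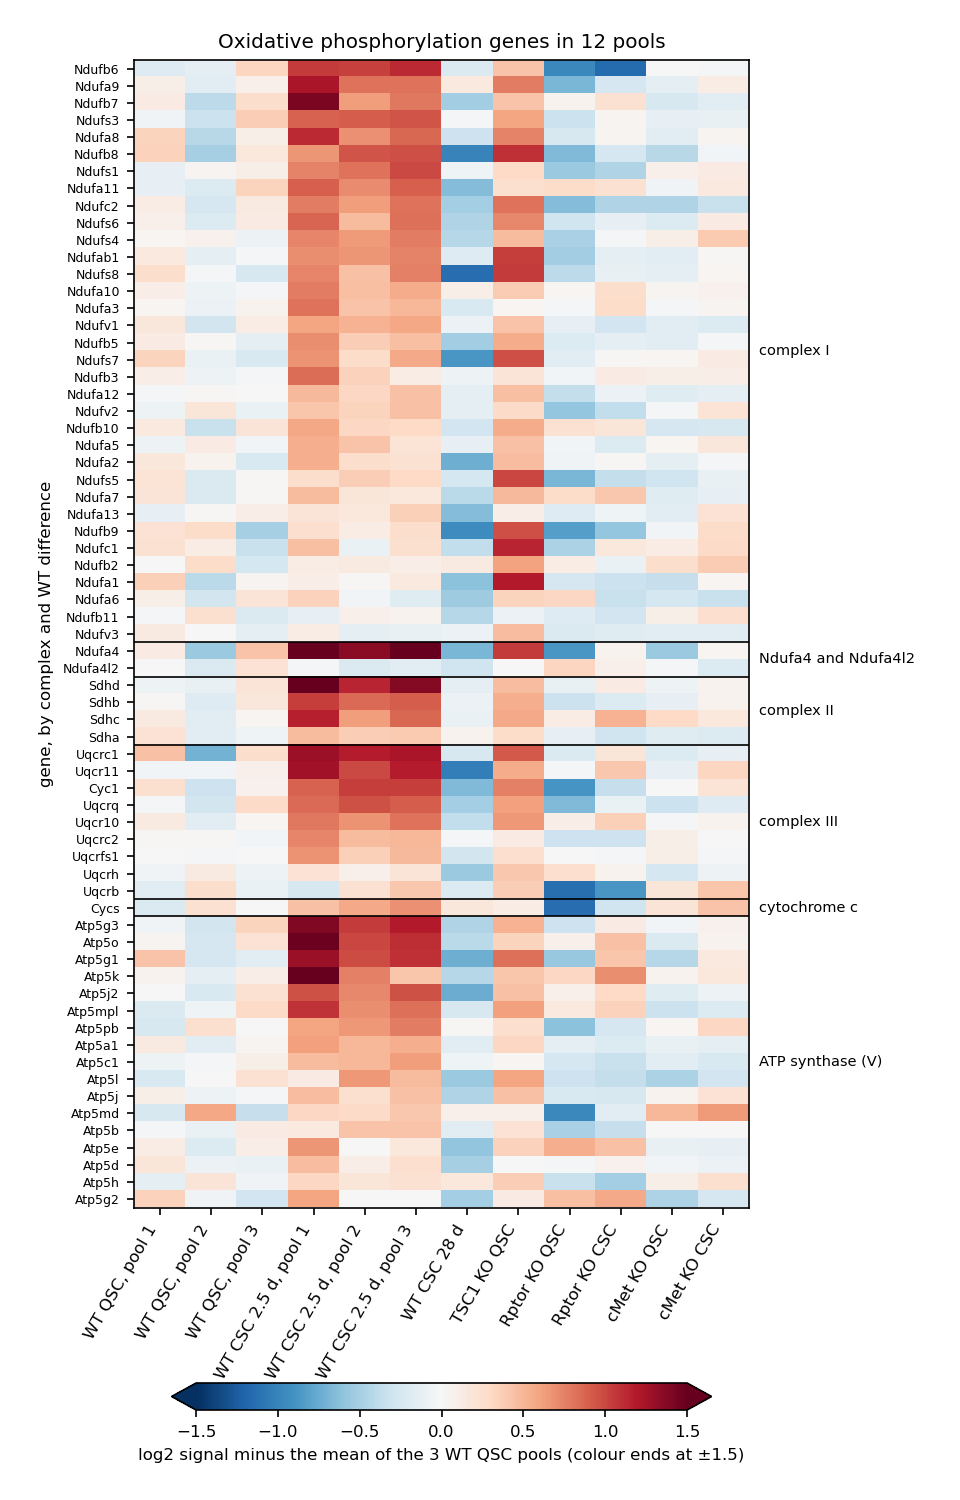
Log2 signal of each of the 67 genes (rows, by complex and by WT difference) in each of the 12 pools (columns), minus the mean of the 3 WT QSC pools; red is higher, blue lower, and the colour ends at ±1.5. The 3 WT CSC columns at 2.5 days are red for most rows, the TSC1 knockout column is red for 66 rows, and the 28-day column is blue for most.

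**Figure D2:**
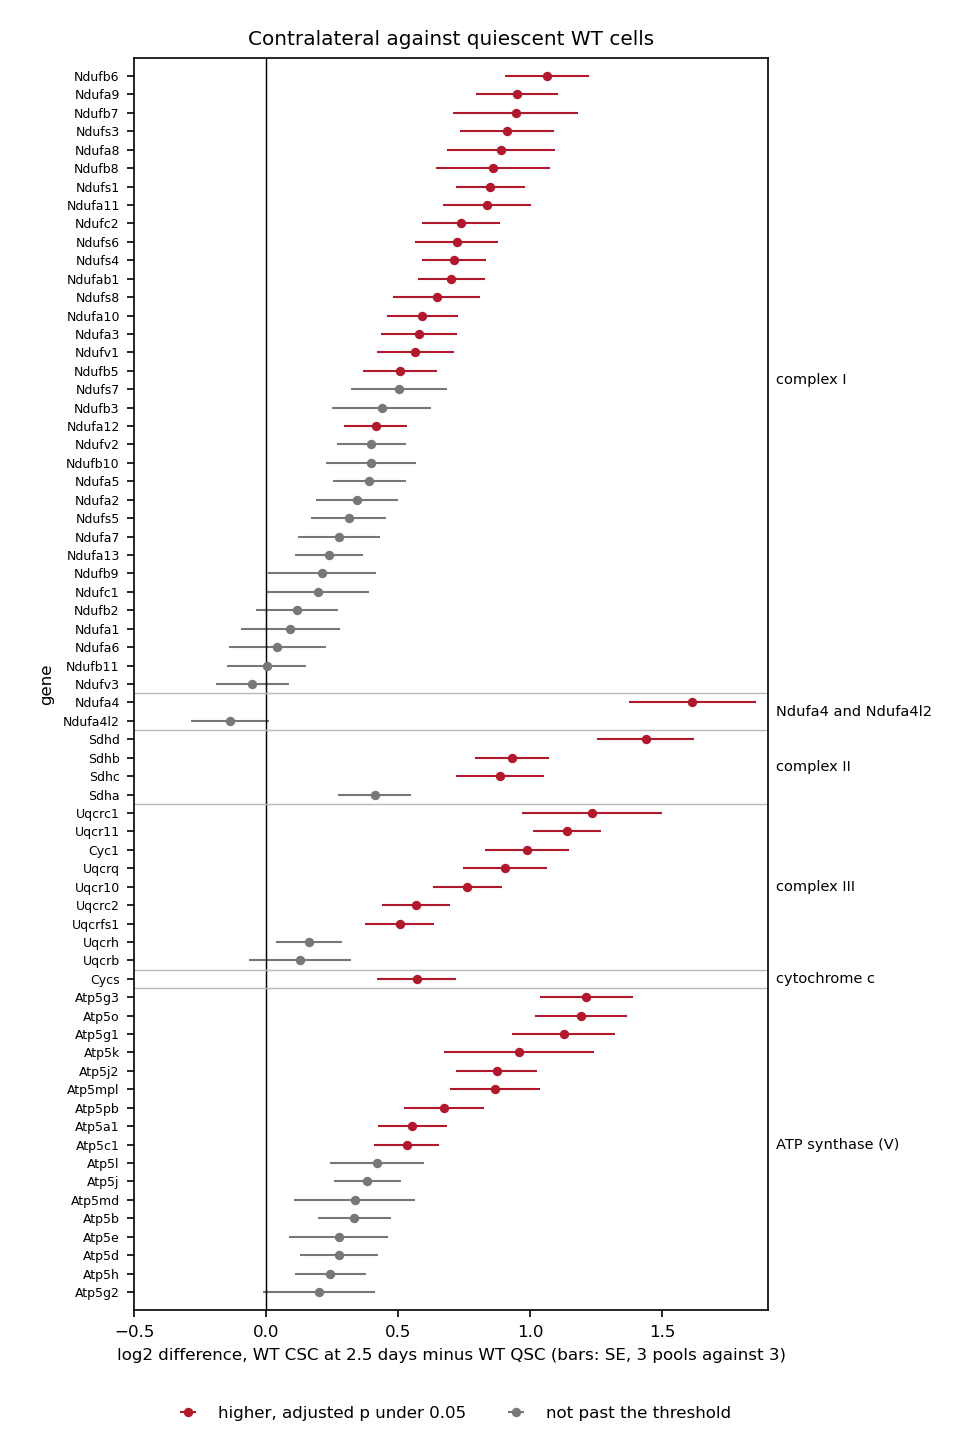
Difference in log2 signal (x axis) between WT CSC at 2.5 days and WT QSC for each gene (y axis, by complex), with its standard error from 3 pools against 3; red points passed an adjusted p of 0.05. No red point lies left of 0, and the 28 grey points are spread over complexes I, II, III and V and include Ndufa4l2.

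In complex I, 18 of 34 genes rose, with a median difference of 0.50 on the log2 scale. Of the 6 core subunits of the matrix arm, which carry the flavin and the iron-sulfur clusters, Ndufs1, Ndufs3, Ndufs8 and Ndufv1 rose, while Ndufs7 (0.50) and Ndufv2 (0.40) did not pass. Ndufs1, the largest iron-sulfur subunit, had log2 signals of 9.04, 9.20 and 9.25 in the WT QSC pools and 9.91, 9.98 and 10.15 in the WT CSC pools. All 3 CSC pools lay above all QSC pools, and the difference was 0.85 ± 0.13 (SE; limma adjusted p = 0.00342). Among the 18 accessory subunits of the membrane arm 9 rose, led by Ndufb6, whose signals were 10.06, 10.11 and 10.57 in QSC and 11.30, 11.27 and 11.36 in CSC. That is a difference of 1.06 ± 0.16 (SE; limma adjusted p = 0.00293), with the QSC pools further apart than the CSC pools. Among the 9 accessory subunits of the matrix arm 4 rose, including Ndufa9, which sits near the ubiquinone site, at 0.95 ± 0.16 (SE; limma adjusted p = 0.00443). Ndufs4, an accessory subunit needed for a stable complex, stood at 10.27, 10.30 and 10.16 in QSC and 10.97, 10.88 and 11.01 in CSC, a difference of 0.71 ± 0.12 (SE; limma adjusted p = 0.00516). Ndufab1, the mitochondrial acyl carrier protein held in both arms, rose by 0.70. At the other end, Ndufa6 differed by 0.04 ± 0.18 and Ndufb11 by 0.00 ± 0.15 (SE), with pools that overlapped, and the sign of both turned under other settings or without single pools.

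Complex II has 4 genes, and 3 of them rose (median difference 0.91). The membrane anchor gene Sdhd, which helps hold the heme and the ubiquinone site, had log2 signals of 8.74, 8.70 and 9.02 in the WT QSC pools and 10.62, 9.96 and 10.19 in the WT CSC pools. The lowest CSC pool lay well above the highest QSC pool, and the difference of 1.44 ± 0.18 (SE; limma adjusted p = 0.00138) was 2.71-fold. The other anchor gene, Sdhc, stood at 9.82, 9.51 and 9.71 in QSC and 10.85, 10.31 and 10.54 in CSC, a difference of 0.89 ± 0.17 (limma adjusted p = 0.00793). Of the catalytic pair, the iron-sulfur subunit gene Sdhb stood at 9.61, 9.39 and 9.76 in QSC and 10.62, 10.43 and 10.49 in CSC, a difference of 0.93 ± 0.14 (limma adjusted p = 0.00300). The flavoprotein gene Sdha stood at 10.93, 10.55 and 10.64 in QSC and 11.18, 11.08 and 11.09 in CSC. Its pools did not overlap either, but its difference of 0.41 ± 0.14 did not pass (limma adjusted p = 0.0732).

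In complex III, 7 of 9 genes rose (median difference 0.76), including both catalytic subunits the rule covers and both core subunits. Cyc1, the subunit that hands electrons to cytochrome c, had signals of 10.26, 9.72 and 10.09 in QSC and 10.91, 11.06 and 11.06 in CSC, a difference of 0.99 ± 0.16 (limma adjusted p = 0.00416). The Rieske iron-sulfur protein gene Uqcrfs1 stood at 8.92, 8.90 and 8.92 in QSC and 9.58, 9.27 and 9.39 in CSC. Its QSC pools lay within a few hundredths of each other, and the difference was 0.50 ± 0.13 (limma adjusted p = 0.0283), a call that was lost under 5 of 18 alternatives: without WT QSC pool 3, without any 1 of the WT CSC pools, and with trend and robust settings in eBayes (adjusted p between 0.0513 and 0.0963). Of the 5 small accessory subunits 3 rose. Uqcr11 had the smallest p of all 67 genes, with 9.56, 9.57 and 9.69 in QSC and 10.86, 10.60 and 10.78 in CSC, a difference of 1.14 ± 0.13 (limma adjusted p = 0.000743). Uqcrq, which binds cytochrome b, rose by 0.90 ± 0.16 and Uqcr10 by 0.76 ± 0.13 (SE). The hinge protein gene Uqcrh (0.16 ± 0.13) and Uqcrb (0.13 ± 0.19) did not pass. Uqcrb is the gene whose 2 arrays differed most in WT CSC pool 1, at 11.78 and 10.69, and its difference was -0.05 with the first arrays of the 3 pools left out. Cycs, the mobile carrier between complexes III and IV, stood at 11.71, 12.16 and 11.92 in QSC and 12.37, 12.50 and 12.62 in CSC, a difference of 0.57 ± 0.15 (limma adjusted p = 0.0323). That call was lost under 8 of 18 alternatives: leaving out QSC pool 1, QSC pool 3 or any 1 of the CSC pools, averaging its probesets, treating the pool as a random block, and leaving out the first arrays of the 3 unlike pools (limma adjusted p between 0.0519 and 0.130).

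In the ATP synthase, 9 of 17 genes rose and all 17 differences were positive (median 0.53). The 3 genes of the c-ring, the rotor that protons turn, encode the same mature protein behind different import sequences; Atp5g1 and Atp5g3 rose and Atp5g2 did not pass. Atp5g1 stood at 11.09, 10.40 and 10.49 in QSC and 11.96, 11.64 and 11.76 in CSC, a difference of 1.13 ± 0.19 (limma adjusted p = 0.00544), and Atp5g3 at 10.77, 10.55 and 11.15 in QSC and 12.22, 11.88 and 12.01 in CSC, a difference of 1.21 ± 0.18 (limma adjusted p = 0.00264). Atp5g2 stood at 12.28, 11.88 and 11.65 in QSC and 12.53, 11.94 and 11.94 in CSC, with overlapping pools and a difference of 0.20 ± 0.21 (limma adjusted p = 0.567); all 3 of its probesets gave 0.16 to 0.21. Whether these differences differ from each other was not tested. Of the upstream letters shown above, the stretch of Atp5g3 has the ERR motif, that of Atp5g2 the NRF1 motif, and that of Atp5g1 none. For Atp5g1 and Atp5g3 the start used lies inside the annotated gene, which reaches to 96075694 on chr11 and 73912464 on chr2. Any other start of these genes is not shown. In the peripheral stalk, which keeps the catalytic head from turning, Atp5o rose from 9.78, 9.48 and 9.96 in QSC to 11.21, 10.74 and 10.85 in CSC, a difference of 1.19 ± 0.18 (limma adjusted p = 0.00274), and Atp5pb rose by 0.67. Of the 5 genes of the F1 head and central stalk, where ATP is made, Atp5a1 (0.55) and Atp5c1 (0.53) rose, while the catalytic beta subunit gene Atp5b (0.33), Atp5d (0.27) and Atp5e (0.27 ± 0.19) did not pass. Atp5j2, Atp5k and Atp5mpl, of the membrane part, rose by 0.87, 0.96 and 0.87.

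**Figure D3:**
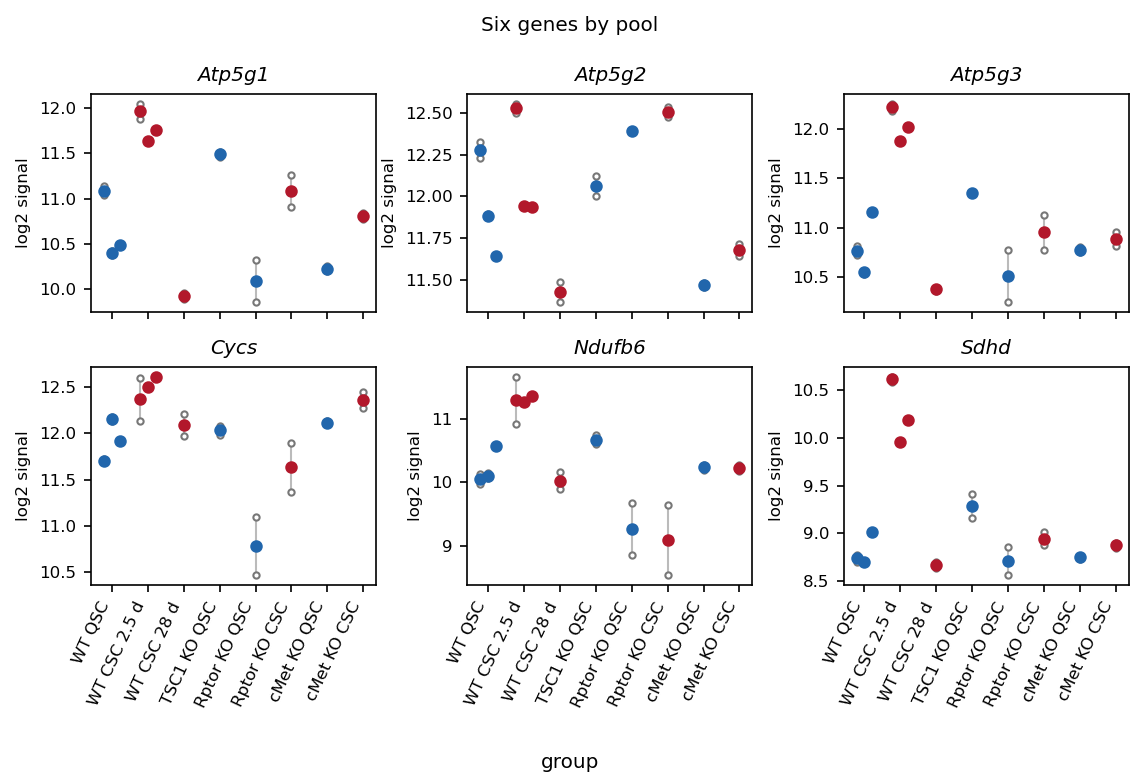
Log2 signal (y axis, its range set per gene) of Atp5g1, Atp5g2, Atp5g3, Cycs, Ndufb6 and Sdhd in the 8 groups (x axis); filled points are pools (blue QSC, red CSC) and open points are the 2 arrays of a pool where there were 2. For Sdhd the 3 WT CSC pools at 2.5 days (9.96 to 10.62) lie above all other pools, while for Atp5g2 they overlap the WT QSC pools.

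Ndufa4, now placed with complex IV, had the largest difference of the 67 genes. Its signals were 8.34, 7.66 and 8.65 in the WT QSC pools and 9.99, 9.57 and 9.92 in the WT CSC pools, a difference of 1.61 ± 0.24 or 3.06-fold (limma adjusted p = 0.00291). Its paralogue Ndufa4l2, which is expressed in pericytes, stood at 6.73, 6.50 and 6.93 in QSC and 6.70, 6.50 and 6.55 in CSC, a difference of -0.14 ± 0.15 that did not pass.

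Genes of the same pathway outside the rule moved as follows in this comparison. Of 15 complex IV subunit genes tested, 4 rose and 2 fell (median 0.35); Cox5a (1.09) and Cox6b1 (0.88) rose, and the tissue-specific isoforms Cox4i2 (-0.44) and Cox8b (-0.60) fell. Of 30 assembly factor genes 12 rose and none fell (median 0.43). Of 12 regulators, Polrmt, the mitochondrial RNA polymerase, rose (0.62), Gabpb1, a subunit of GABP, fell (-0.57), and the other 10 did not pass (median 0.07). Only 2 subunit genes of mitochondrial DNA are named on the array, ND3 and COX2, and neither passed, with differences of 0.08 and 0.04.

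Markers of other cell types also moved between these groups. Of 10 endothelial markers 8 fell (median -1.21), their mean log2 signal being 8.82 to 9.50 in the QSC pools and 7.71 to 8.20 in the CSC pools. Pericyte and smooth muscle markers fell in 6 of 10 genes (median -0.84), fibro-adipogenic progenitor markers in 4 of 9 (median -0.66) and satellite cell markers in 4 of 12 (median -0.41), while none of 7 macrophage markers passed (median 0.02). Mature fibre markers rose in 3 of 9 genes (median 0.42), their mean log2 signal being 7.32 to 8.28 in the QSC pools and 8.05 to 8.45 in the CSC pools. Myh2, Myh4 and Mylpf lay under the filter, which uses the mean over all 12 pools, and were not tested. Mylpf was at 6.12, 5.76 and 6.37 in QSC and 7.89, 7.28 and 6.90 in CSC. Myh2 was at 6.21 to 6.37 in QSC and 5.98 to 6.28 in CSC, and Myh4 at 6.22 to 7.64 and 6.14 to 6.43. In sorted pools, a change in the share of a cell type and a change in RNA per cell cannot be told apart. The part of these shifts in the oxidative phosphorylation result was not tested.

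At 28 days after injury the WT CSC pool had signals near or below those of WT QSC for most of these genes. None of the 67 genes passed against WT QSC (limma; 0 of all genes passed, 0%), 18 had an unadjusted p under 0.05 (4.56% of all genes did), and 8 of 67 differences were positive, with a median of -0.31. Uqcr11 was at 8.57 against 9.56, 9.57 and 9.69 in WT QSC, a difference of -1.04 ± 0.18 (limma adjusted p = 0.369). For Ndufs8, a core iron-sulfur subunit gene of complex I, the pool was at 9.26 against 10.67, 10.37 and 10.17 (-1.14 ± 0.23; limma adjusted p = 0.385), and for the accessory subunit gene Ndufa13 at 8.62 against 9.14, 9.29 and 9.37 (-0.65 ± 0.18; limma adjusted p = 0.828). The 28-day pool lay below all 3 QSC pools for each of these genes. Set against the CSC pools at 2.5 days, 36 of 67 genes were lower at 28 days and none higher, against 6.32% of all genes lower, 2.06% higher and 8.38% in either direction. An unadjusted p under 0.05 was found for 55 of the 67 (24.2% of all genes), and the median difference was -0.86, against 0.04 over all genes. By complex, 17 of 34 genes were lower in complex I, 3 of 4 in complex II, 7 of 9 in complex III and 8 of 17 in complex V, with Ndufa4 as the remaining gene. Uqcr11, at 8.57 against 10.86, 10.60 and 10.78, had a difference of -2.18 ± 0.18 (limma adjusted p = 0.000769). Ndufs8 differed by -1.79 ± 0.23, Cyc1 by -1.65 ± 0.23 and Atp5j2, the subunit f gene of the ATP synthase membrane part, by -1.61 ± 0.22, each with the 28-day pool below all CSC pools. Cycs, at 12.09 against 12.37, 12.50 and 12.62, did not pass (-0.40).

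The 28-day values come from 1 pool, whose spread is taken from the 6 WT pools of the other groups. Without WT CSC pool 2 the count of lower genes was 23 and without pool 3 it was 17, where all-gene calls in either direction went from 1169 to 577 and 453; the members' count was 35 with the second and 28 with the first arrays of the 3 unlike pools left out. The comparisons of 2.5 days and 28 days with QSC share the WT QSC pools, and those of 28 days and QSC with CSC share the WT CSC pools. In the 28-day pool mature fibre markers had a mean log2 signal of 7.41, against 8.05 to 8.45 in the CSC pools at 2.5 days, and 2 of 9 were lower, with a median difference of -1.02. Endothelial markers were at 7.94, within the range of the CSC pools, and 0 of 10 passed between the CSC ages. The part of the fibre markers' difference was not tested. Between the same CSC groups, 6 of 15 complex IV genes (median -0.77) and 6 of 30 assembly factor genes (median -0.42) were lower at 28 days, none of either list was higher, and none of 12 regulators passed.

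**Figure D4:**
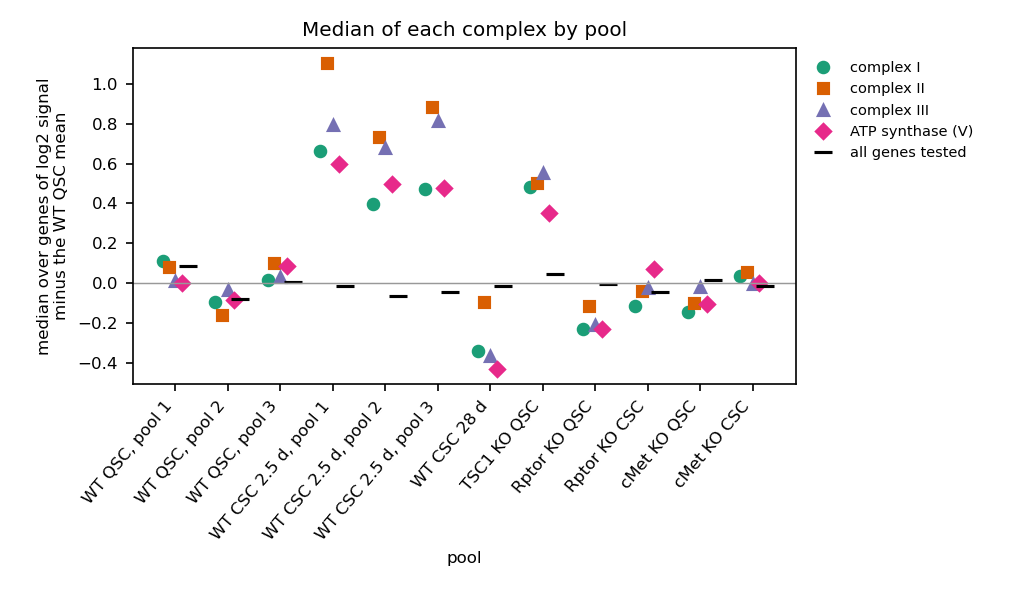
Median over the genes of each complex (symbols) of log2 signal minus the WT QSC mean (y axis) in each of the 12 pools (x axis), with the median over all 13956 genes as a bar. The medians lie between 0.40 and 1.10 in the WT CSC pools at 2.5 days and between 0.35 and 0.55 in TSC1 knockout QSC, and all 4 are below 0 at 28 days.

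TSC1 knockout QSC, from mice in which this inhibitor of mTORC1 was floxed and no limb was injured, had higher signals for 66 of 67 genes than the WT QSC mean, with a median of 0.45 against 0.04 over all genes. None of the 67 passed the test (limma; 2 of all genes did, 0.0143%), while 32 had an unadjusted p under 0.05 (8.82% of all genes did). Medians were 0.48 in complex I, 0.50 in complex II, 0.55 in complex III and 0.35 in complex V. Ndufab1 was at 10.06 against 8.89 to 9.17 in WT QSC (1.04 ± 0.18; limma adjusted p = 0.137), Ndufs5, an accessory subunit gene of the membrane arm, at 8.71 against 7.91, 7.50 and 7.73 (1.00 ± 0.20; limma adjusted p = 0.225), and Ndufs8 at 11.45 against 10.67, 10.37 and 10.17 (1.05 ± 0.23; limma adjusted p = 0.298). For all 3 the knockout pool lay above every WT QSC pool. Sdhd was at 9.28, a difference of 0.46, and Cycs, at 12.03, lay within the range of the WT QSC pools (0.11). This comparison shares its WT QSC pools with that of WT CSC at 2.5 days. Leaving out WT QSC pool 1 brought 6 of the 67 genes past the threshold, and a fit of single arrays, grouped by pool as a random effect, brought 8. Calls over all genes rose from 2 to 231 and 174 in these fits. The single-array fit counts the 2 arrays of a pool as partly independent (consensus correlation 0.598), so its calls add no replicate pool.

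Among regulators, Ppargc1a, which encodes PGC-1alpha, was at 10.13 in this pool against 8.37, 8.05 and 7.65 in WT QSC (difference 2.11 ± 0.36; limma adjusted p = 0.130). Cox8b, the complex IV isoform of heart and skeletal muscle, was at 11.94 against 8.02, 7.64 and 7.96 and passed (4.07 ± 0.21; limma adjusted p = 0.000136). All 9 mature fibre markers had positive differences in this pool (median 0.57), none of which passed, and their mean log2 signal of 8.34 lay just above the 7.32 to 8.28 of the WT QSC pools. Their part in the higher signals was not tested. The other 14 complex IV genes (list median 0.47), the 30 assembly factor genes (median 0.34) and the 12 regulators (median -0.00) held none that passed.

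In Rptor knockout QSC, labelled as lacking the mTORC1 subunit raptor, none of the 67 genes passed against WT QSC (limma; 17 of all genes did, 0.122%, with 0.0358% higher and 0.086% lower), and 17 had an unadjusted p under 0.05 (11.3% of all genes did). The median difference was -0.22, and 18 of 67 were positive; it was -0.28 with the second arrays of the 3 unlike pools left out and -0.07 with their first arrays left out. Cycs was at 10.78 against 11.71, 12.16 and 11.92 (-1.15 ± 0.21; limma adjusted p = 0.101), Ndufb6 at 9.27 against 10.06, 10.11 and 10.57 (-0.97 ± 0.23; limma adjusted p = 0.172), and Uqcrb at 10.34 against 11.31, 11.74 and 11.38 (-1.14 ± 0.27; limma adjusted p = 0.178). This pool is 1 of the 3 with unlike arrays: Uqcrb was at 10.81 and 9.87, Ndufb6 at 9.68 and 8.86, and Cycs at 11.09 and 10.47. On each of these arrays the 3 genes still lay below all WT QSC pools. Cox8b was the only complex IV gene of 15 that passed here, with a difference of 1.62 ± 0.21 (limma adjusted p = 0.0266). In cMet knockout QSC none of the 67 passed (limma; 0 of all genes did, 0%), and none had an unadjusted p under 0.05 (1.33% of all genes did). Its median was -0.12, and the genes with the smallest p, Ndufc2 (-0.45 ± 0.21), Atp5l (-0.47 ± 0.25) and Ndufa4 (-0.56 ± 0.34), all had a limma adjusted p of 1.00. Mature fibre markers had medians of -0.37 in Rptor and -0.36 in cMet knockout QSC against WT QSC, with 0 and 1 of 9 positive. Endothelial markers had medians of -0.18 and 0.46, with 3 and 10 of 10 positive. No marker of either list passed, and their part in the oxidative phosphorylation medians was not tested.

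The next comparison asks how the knockouts responded to injury of the opposite limb, each CSC pool against the QSC pool of the same genotype. In the Rptor knockout none of the 67 genes passed (limma; 36 of all genes did, 0.258%), 2 had an unadjusted p under 0.05 (5.06% of all genes did), and the median was 0.19 (0.28 without the second arrays of the unlike pools, 0.12 without the first). The genes with the smallest p were Cycs, at 10.78 in QSC and 11.63 in CSC (0.85 ± 0.26; limma adjusted p = 0.626), Atp5g1, at 10.09 and 11.08 (0.99 ± 0.34; limma adjusted p = 0.747), and Ndufa4, at 7.35 and 8.27 (0.93 ± 0.42; limma adjusted p = 0.995). Cycs in Rptor knockout CSC lay below all 3 WT QSC pools, the lowest of which was at 11.71. In the cMet knockout none of the 67 passed (limma; 0 of all genes did, 0%), none had an unadjusted p under 0.05 (0.537% of all genes did), 53 of 67 differences were positive and the median was 0.13. Uqcr11 (9.49 and 9.93; 0.44 ± 0.22), Atp5g1 (10.23 and 10.81; 0.58 ± 0.34) and Ndufa13 (9.11 and 9.48; 0.37 ± 0.22) had the smallest p there, and all had a limma adjusted p of 1.00. These are single pools against single pools, with a median standard error of 0.27 over the 67 genes.

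Against WT CSC at 2.5 days, both knockouts' CSC pools had lower signals. In Rptor knockout CSC 14 of 67 genes were lower and none higher, against 2.97% of all genes lower, 0.924% higher and 3.9% in either direction. An unadjusted p under 0.05 was found for 42 (19.8% of all genes). The median difference over the 67 genes was -0.70, against -0.01 over all genes. The 14 lower genes were 5 of complex I, 2 of complex II, 3 of complex III, 3 of complex V and Ndufa4. Ndufb6 was at 9.09 against 11.30, 11.27 and 11.36 in WT CSC, a difference of -2.21 ± 0.23 (limma adjusted p = 0.00480), and it lay below the WT QSC pools as well. Its arrays read 9.65 and 8.54, and those of WT CSC pool 1 read 11.67 and 10.93, so the second array was lower in both pools. Ndufs1 was at 8.71 against 9.91, 9.98 and 10.15 (-1.30 ± 0.19; limma adjusted p = 0.0106), Cyc1 at 9.68 against 10.91, 11.06 and 11.06 (-1.33 ± 0.23; limma adjusted p = 0.0198), and Ndufc2, of the membrane arm, at 11.17 against 12.40, 12.25 and 12.45 (-1.19 ± 0.21; limma adjusted p = 0.0204). For each of them the knockout pool lay more than 1 log2 unit below the lowest WT CSC pool. The count was 4 without WT CSC pool 1, 1 without pool 2 or without pool 3, and 25 without WT QSC pool 2, and it stayed at 14 with the second or with the first arrays of the 3 pools left out. All-gene calls moved as well, from 544 to 233, 68, 25 and 994 without those pools.

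In cMet knockout CSC 13 of 67 genes were lower than in WT CSC and none higher, against 3.35% of all genes lower, 3.4% higher and 6.74% in either direction. An unadjusted p under 0.05 was found for 38 (23.4% of all genes). The median difference over the 67 genes was -0.57, against 0.00 over all genes. The 13 lower genes were 3 of complex I, 2 of complex II, 2 of complex III, 5 of complex V and Ndufa4. Sdhd was at 8.87 against 10.62, 9.96 and 10.19 in WT CSC, a difference of -1.38 ± 0.26 (limma adjusted p = 0.0186), and within the range of WT QSC (8.74, 8.70 and 9.02). Ndufc2 was at 11.29 against 12.40, 12.25 and 12.45 (-1.07 ± 0.21; limma adjusted p = 0.0209), Uqcrq at 9.11 against 10.16, 10.26 and 10.21 (-1.09 ± 0.23; limma adjusted p = 0.0261), and Ndufb6 at 10.23 against 11.30, 11.27 and 11.36 (-1.08 ± 0.23; limma adjusted p = 0.0276). All 3 lay below every WT CSC pool. The count was 1 without WT CSC pool 1 or pool 2, 0 without pool 3, 21 without WT QSC pool 1 and 25 without WT QSC pool 2. All-gene calls went from 941 to 423, 374, 314, 1303 and 1578 in these fits. With the first arrays of the 3 unlike pools left out the members' count was 8, and with their second arrays left out it was 16.

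Markers of other cells differed in these pools too. In Rptor knockout CSC 6 of 7 macrophage markers were higher than in WT CSC (median 1.70), with a mean log2 signal over the list of 8.52 against 6.68 to 7.70 in the other 11 pools. Adgre1, Mrc1 and Cd163 lay under the filter on the mean of all 12 pools and were not tested. In this pool Adgre1 was at 8.18 (5.70 to 6.71 in the other 11), Mrc1 at 7.05 (5.92 to 6.96) and Cd163 at 5.72 (5.55 to 5.83). In cMet knockout CSC 8 of 10 endothelial markers (median 2.04) and 5 of 9 fibro-adipogenic progenitor markers (median 1.00) were higher than in WT CSC, as were 2 of 10 pericyte and smooth muscle markers (median 0.90) and 2 of 7 macrophage markers (median 0.53). Mature fibre markers had medians of -0.97 and -1.11 in the Rptor and cMet knockout CSC pools against WT CSC, with 1 of 9 lower in each. Their part in the lower oxidative phosphorylation signals was not tested. Against WT CSC, 2 of 15 complex IV genes were lower and 1 higher in Rptor knockout CSC, and 1 was lower in cMet knockout CSC; 3 of 30 assembly factor genes were lower in each, and none of 12 regulators passed in either.

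Whether the knockouts' responses differed from the WT response was tested as a difference of differences, and no gene of the 67 passed for either. For the Rptor knockout 10 of 67 had an unadjusted p under 0.05 (4.44% of all genes did; limma called 0 of all genes, 0%), with a median of -0.43 (-0.40 without the second arrays of the unlike pools, -0.51 without the first). The smallest p were those of Ndufb6 (-1.24 ± 0.32; limma adjusted p = 0.610), Sdhd (-1.20 ± 0.37; 0.788) and Sdhb (-0.81 ± 0.28; 0.937). For the cMet knockout 16 of 67 had an unadjusted p under 0.05 (9.52% of all genes did; limma called 22 of all genes, 0.158%, with 0.0358% higher and 0.122% lower), with a median of -0.44. Sdhd (-1.31 ± 0.37; limma adjusted p = 0.241), Ndufb6 (-1.07 ± 0.32; 0.267) and Atp5g3 (-1.10 ± 0.35; 0.319) had the smallest p. For the cMet knockout, 0 of all genes passed with the first or with the second arrays of the unlike pools left out. The response differences of both knockouts rest on 3 WT pools in each state and 1 knockout pool in each, with a median standard error of 0.31.

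**Figure D5:**
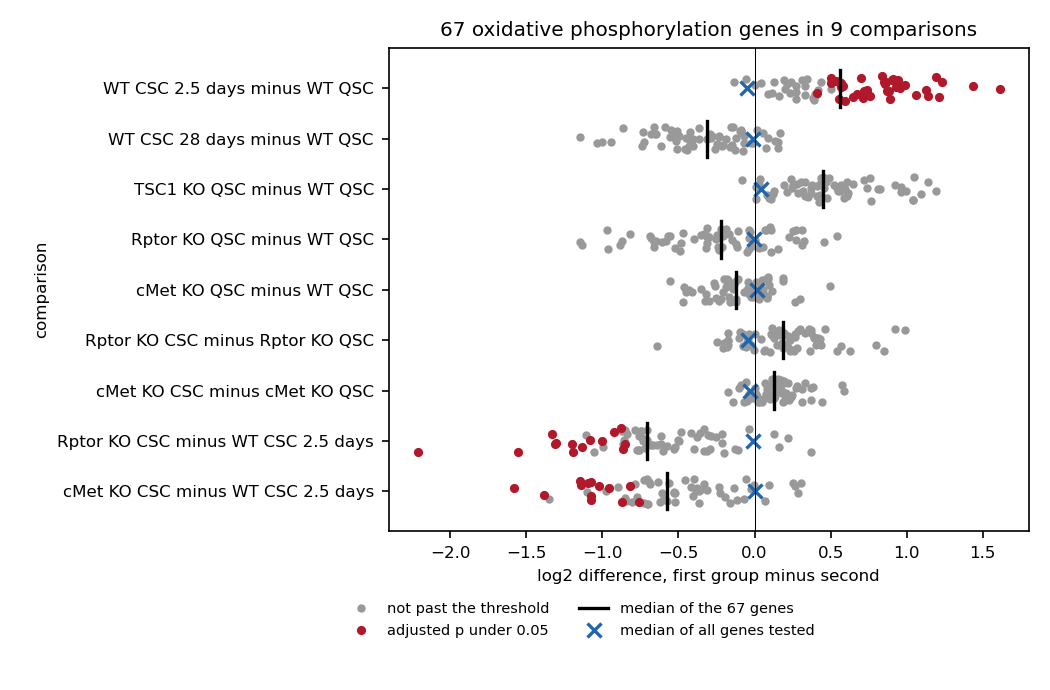
Difference in log2 signal (x axis, first group minus second) of each of the 67 genes (points) in 9 comparisons (y axis); red points passed an adjusted p of 0.05, black bars are medians over the 67 genes and blue crosses medians over all genes tested. Red points lie right of 0 only for WT CSC at 2.5 days against WT QSC (39), and left of 0 for Rptor (14) and cMet (13) knockout CSC against WT CSC.

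How the measurement itself varied bears on single genes. Of the 34 dimmer members 19 rose in WT CSC at 2.5 days, with a median difference of 0.50, and of the 33 brighter members 20 rose, with a median of 0.57. The median SD between WT QSC pools was 0.21 over the 67 genes and 0.21 over all genes, and between WT CSC pools 0.14 and 0.13. In the 3 pools with unlike arrays, 41 of the 67 genes differed in the same direction in all 3, with the second array lower for 18 and higher for 23. Uqcrb differed by -1.08, -0.94 and -1.11 and Ndufb6 by -0.74, -0.82 and -1.10 in WT CSC pool 1, Rptor knockout QSC and Rptor knockout CSC. There were 14 genes with more than 1 probeset, and their WT CSC differences agreed within 0.16 for 12 of them; Ndufa11 had 0.84 and 0.52, and Cycs had 0.57, 0.55 and, for a much dimmer probeset, 0.15. Whether probesets of such genes also read processed copies elsewhere in the genome is not given in the sources used here.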

How the data were processed

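RNA of sorted satellite cells, 100 ng per pool, was measured on Affymetrix Mouse Gene ST arrays (21 arrays of 12 pools). The authors deposited log2 signals per probeset, made by RMA; the submitters' processing notes name Affymetrix Expression Console as the software. RMA subtracts background, quantile-normalizes and summarizes probes, so shifts shared by all genes are removed. The sources used here do not give its version, its library files, a build, or which arrays were normalized together. Gene symbols came from GEO's platform annotation: of 35556 probesets, 21789 had 1 symbol, 1621 several and 12146 none listed, and only those with 1 symbol were used. Ndufb4 was therefore not analysed here, and the ATP synthase inhibitor is listed under a symbol outside the rule.

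Each gene was read from its probeset with the highest mean, the arrays of a pool were averaged, and genes under the 30th percentile of mean signal were left out. limma (3.58.1, R 4.3.3) fitted 8 group means to the 12 pools (4 residual degrees of freedom, 5.01 prior), with lmFit and eBayes, and p-values for each of 12 contrasts were adjusted by Benjamini-Hochberg over 13956 genes. A group of 1 pool takes its spread from the WT pools and has no replicate check of its own. The labels make a pool a separate preparation of 3 to 4 mice; p-values measure the spread between pools, and the number of arrays limits the precision. Differences are in log2 units with standard errors from the fit.

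The members and lists were chosen with earlier results of these data known. Named genes were, for WT CSC against WT QSC, the 4 with the smallest and 2 with the largest p of each complex, complex II, the c-ring, Cyc1, Cycs, Uqcrfs1, Ndufa4 and Ndufa4l2; elsewhere up to 4 past the threshold or, where none passed, the 3 with the smallest p. Other genes were named after their values were seen. Alternatives covered normalization, centring, the filter, probesets, eBayes settings, technical arrays, the samples fitted, a replicate block and each WT pool left out; leaving out the first or the second arrays of 3 pools was chosen after seeing the data. Same-numbered WT QSC and WT CSC pools correlated at 0.319, -0.033 and -0.034 in their deviations from group means, and differently numbered ones at -0.306 to 0.317. With 3 pools a group these values cannot decide whether the numbers pair the pools. The main fit did not pair them. The scripts were tested on simulated data. Promoters were read from RefSeq (GRCm38.p6).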

Additional observations from a re-analysis of the deposited data

How the results depend on the processing

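Of 18 named genes called in WT CSC at 2.5 days against WT QSC, 16 passed under all 18 alternatives; Cycs and Uqcrfs1 did not. Of all 67 genes, 20 passed in every fit, 21 in none, and 59 were positive in every fit. With the replicate number as a block 39 genes passed. Leaving out 1 WT pool at a time gave 21 to 38 genes called in this comparison, 17 to 43 for 28 days against 2.5 days, 0 to 6 for the TSC1 knockout, 1 to 25 for Rptor and 0 to 25 for cMet knockout CSC against WT CSC. In the same order, all-gene calls in those fits ran from 1194 to 2620, 453 to 1776, 1 to 231, 25 to 994 and 314 to 1578. The reported fits called 2510, 1169, 2, 544 and 941 of all genes. With all arrays and the pool as a random block, the counts were 2 for 28 days against WT QSC, 8 for the TSC1 knockout, 1 for Rptor knockout QSC, 27 for Rptor and 30 for cMet knockout CSC against WT CSC, and 1 for the cMet difference in response; all-gene calls in the same fits were 52, 174, 235, 1378, 2173 and 357, against 0, 2, 17, 544, 941 and 22 in the reported ones. A further quantile normalization gave 9 for Rptor knockout CSC, with 533 of all genes called against 544 in the reported fit. For cMet knockout CSC the first array of each pool gave 20, and leaving out the first arrays of the 3 unlike pools gave 8. All-gene calls there were 1128 and 664, against 941 in the reported fit. The random-block fit counts the 2 arrays of a pool as partly independent, and a group of 1 pool gains no replicate by it. The cause of these changes was not tested.

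Some genes turned sign between fits. Over all fits Ndufa1 ran from -0.11 to 0.27, Ndufb2 from -0.018 to 0.25, Ndufb9 from -0.040 to 0.35 and Ndufv3 from -0.13 to 0.015. Ndufa6 ran from -0.11 to 0.15 with single pools left out and was -0.022 without those first arrays. Ndufb11 ran from -0.11 to 0.12 with single pools left out and from -0.14 to 0.16 over all fits. It was -0.0041 after quantile normalization, -0.024 with the random block and -0.14 without the first arrays. Uqcrb ran from -0.0090 to 0.31 with single pools left out, and was -0.053 without the first arrays. Sdha passed with the random block (limma adjusted p = 0.0353) and without WT QSC pool 1 (0.0321). A single pool cannot show its own spread, and small differences in dim genes are limited by the number of pools.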
